A study of Mus musculus with 6 samples.

Results

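The chemokine system was followed through 51 genes in the mouse prostate at 4 weeks of age, in 3 AR3 transgenic mice and 3 of their wild-type littermates, each mouse on an array of its own. A gene was taken when its probe set carried a single gene symbol of the form Ccl, Cxcl, Ccr or Cxcr with a number, or was Cx3cl1, Cx3cr1, Xcl1 or Xcr1, and where a gene had several, the one brightest on average across the 6 arrays stood for it. The 51 genes are 19 CC ligands, 15 CXC, C and CX3C ligands and 17 receptors, out of 19938 genes followed on the array. AR3 is a splice variant of the androgen receptor that lacks the hormone-binding part. The sources used here do not name the promoter that drives the transgene or the cells it is active in. The labels number the mice within each genotype, describe dissected prostates and mention no treatment. Expression of the transgene itself was not analysed here.

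Chemokines are small secreted proteins that direct the movement of white blood cells. They are classed by the spacing of their first cysteines as CC, CXC, C or CX3C and act on receptors that couple to inhibitory G proteins. Some are made constantly by stroma and epithelium and hold cells in place, while others are switched on by NF-kB or interferon signalling during inflammation. In the prostate they are known mainly as signals by which epithelium and stroma attract macrophages, neutrophils and T cells.

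None of the 51 genes passed the threshold between the genotypes. At an adjusted p of 0.05 (limma), 0 of 51 were called, beside 1.64% of all 19938 genes (1.18% higher and 0.456% lower) and 1.47% of all 28944 probe sets tested. With an unadjusted p under 0.05 there were 7 of 51, 5 higher and 2 lower in transgenic prostates, beside 12.2% of all genes, 6.91% higher and 5.27% lower. These were Cxcl16, Ccl9, Cx3cr1, Ccl1 and Cxcl10 on the higher side and Ccr8 and Ccl24 on the lower side. The count of 7 became 2 without transgenic replicate 1, 3 without transgenic replicate 3 and 11 without wild-type replicate 3. The share of all genes under 0.05 was not counted in those settings. Their limma calls over all probe sets at an adjusted p of 0.05 numbered 289, 234 and 374, against 425. The smallest adjusted p in the family was 0.19, for Cxcl16. In 9 of the 51 the genotypes did not overlap, beside 19.1% of all genes. In 7 of these all 3 transgenic values lay above all 3 wild-type values, beside 10.5% of all genes, and in 2 they lay below, beside 8.61%.

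Log2 changes, given as transgenic minus wild-type on the log2(intensity + 16) scale, ran from -0.28 for Ccr8 to 0.34 for Ccl11. The median over the 51 genes was 0.063, beside 0.013 over all genes, and 33 of the 51 changes were positive, beside 53.9% of all genes. The median was 0.043 for CC ligands, 0.12 for CXC, C and CX3C ligands and -0.011 for receptors. For every one of the 51 genes the 95% interval of the change lay within -1 to 1, that is, short of a doubling or a halving of intensity + 16, as it did for 98.5% of all genes. Narrower bounds of -0.5 to 0.5 held the interval of 39 of the 51, beside 83% of all genes. The added constant of 16 draws the changes of dim genes towards 0, so for genes near background the bounds understate the change in intensity.

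**Figure D1:**
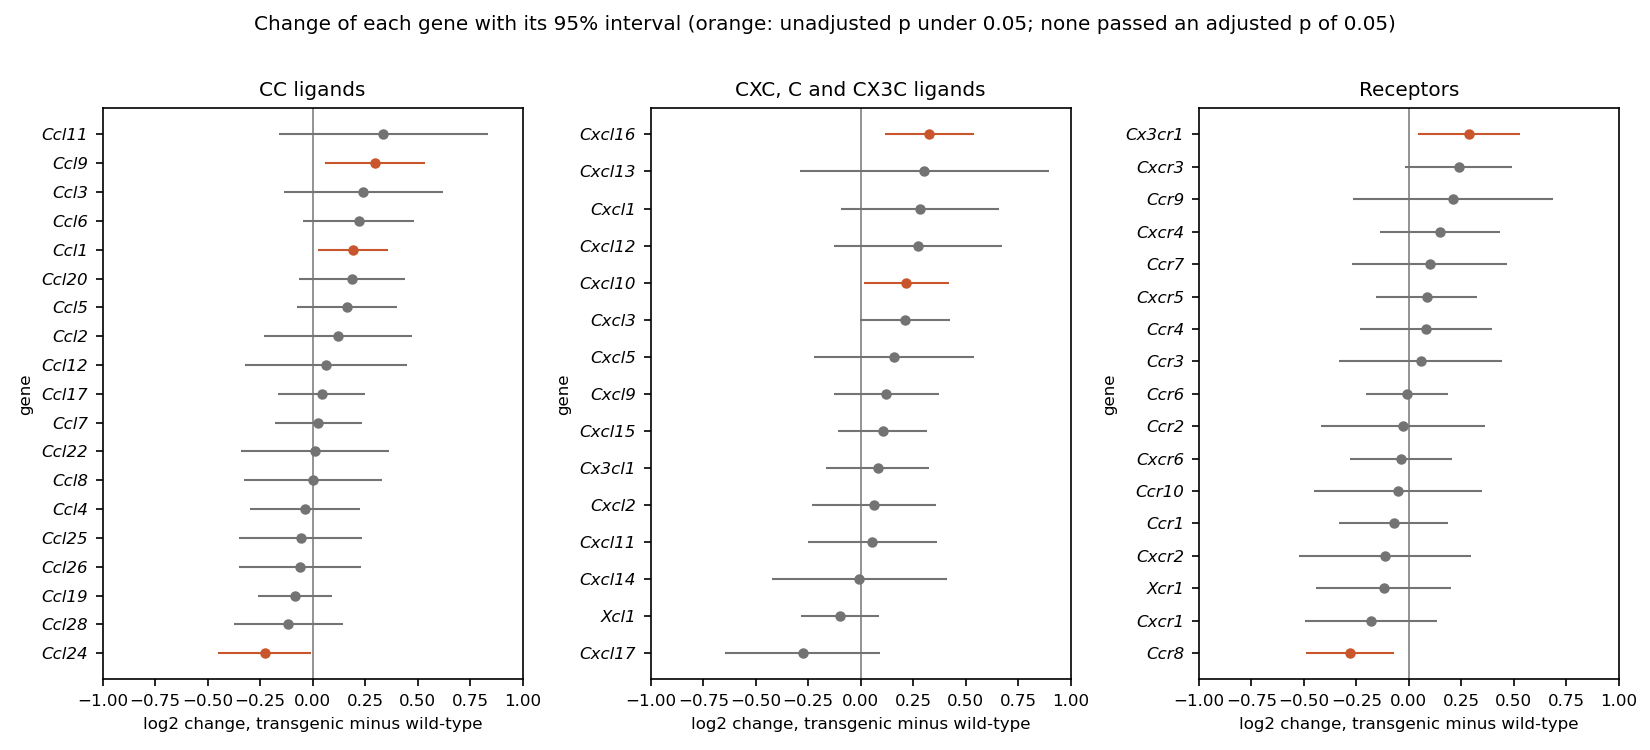
Log2 change of each of the 51 genes (transgenic minus wild-type, x axis) with its 95% interval, in 3 panels by role and ordered by size. Orange marks the 7 genes with an unadjusted p under 0.05. No gene passed an adjusted p of 0.05, and no interval reaches -1 or 1.

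Signal on these arrays limited what could be seen for much of the family. No detection calls were used, so the 95th percentile of 1035 olfactory receptor probe sets on each array, between 66.9 and 91.9, served as a background scale. Of the 51 genes, 12 lay above it on all 6 arrays, 11 on some arrays and 28 on none, where 57.1% and 30.4% of all genes lay above it on all and on none. The 12 were the CC ligands Ccl4, Ccl5, Ccl11 and Ccl25, the CXC and CX3C ligands Cxcl1, Cxcl3, Cxcl12, Cxcl14, Cxcl16, Cxcl17 and Cx3cl1, and 1 receptor, Cxcr4. Intensities of different probe sets are not levels on 1 scale, so genes are compared with themselves across mice and not with each other. The background itself was lowest on wild-type replicate 1 (66.9) and highest on wild-type replicate 3 (91.9), and 20 of the 51 genes had their lowest value on wild-type replicate 1 and 20 their highest on wild-type replicate 3, beside 32.3% and 29.8% of all genes. The part of this background in single values was not tested.

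**Figure D2:**
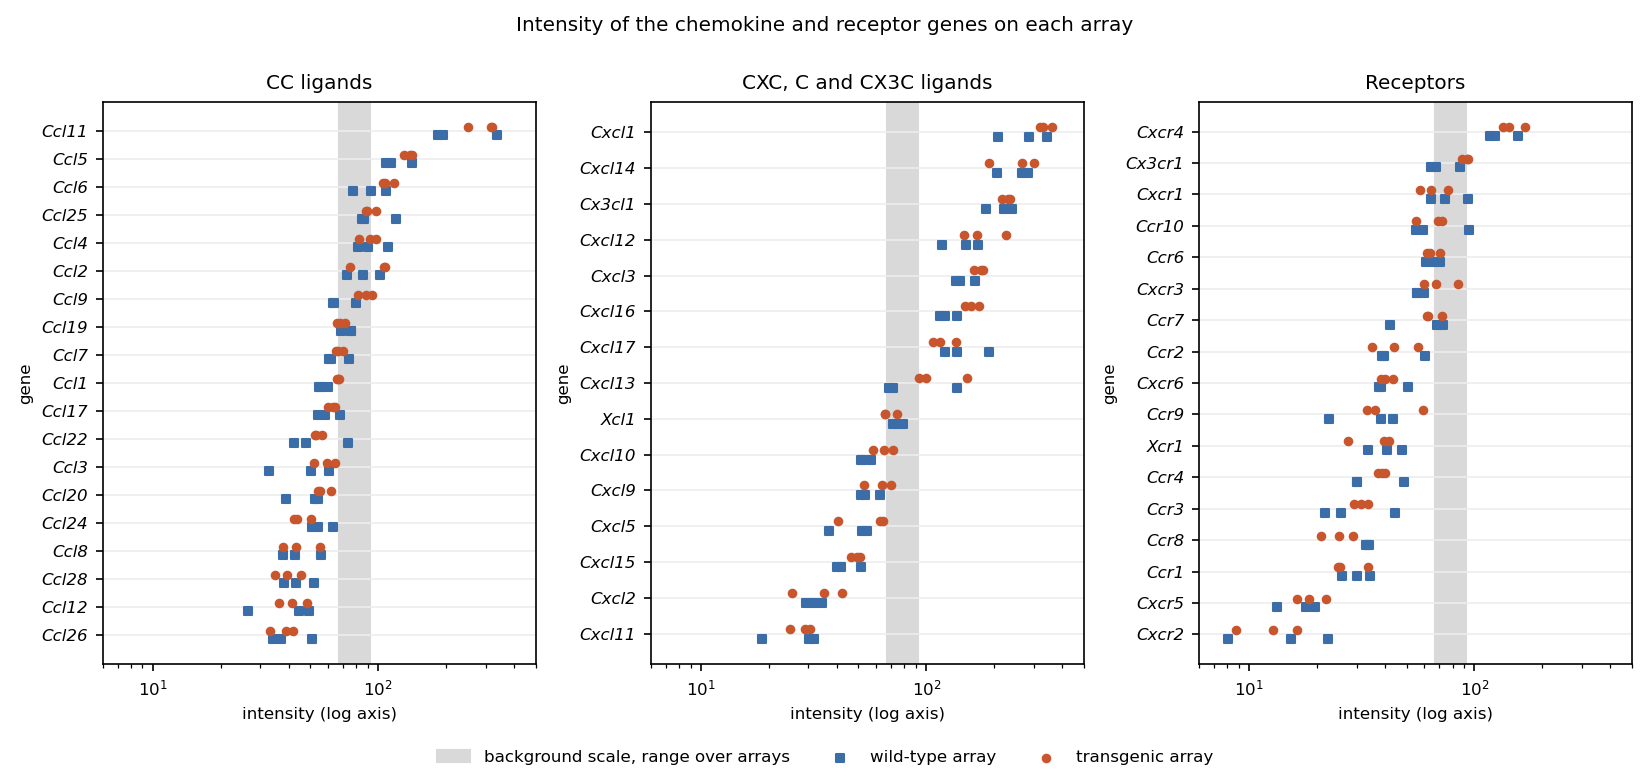
Intensity of each gene on each array (log axis), in 3 panels by role, with wild-type arrays as blue squares and transgenic arrays as orange circles. The grey band spans the background scale over the arrays, 66.9 to 91.9, and 28 of the 51 genes lie below their array's background on every array.

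Among the 19 CC ligands, 3 had an unadjusted p under 0.05, beside 12.2% of all genes, a share near that of the group. Ccl9, a ligand of Ccr1 made largely by myeloid cells, gave intensities of 79.7, 62.8 and 63.4 in the wild-type mice and 94.0, 88.0 and 81.1 in the transgenic mice, listed here and throughout in the order of replicates 1, 2 and 3. The genotypes did not overlap, although wild-type replicate 1 came within a small distance of the lowest transgenic value. Wild-type replicates 2 and 3 lay below the background of their arrays. The means were 68.7 ± 9.58 and 87.7 ± 6.44 (SD, n = 3 each), and the log2 change of 0.30 ± 0.10 (SE) had an adjusted p of 0.30. Its genomic neighbour Ccl6, another myeloid chemokine, gave 92.4, 77.3 and 108 in wild-type and 117, 105 and 107 in transgenic mice. Wild-type replicate 3 lay inside the transgenic range of Ccl6, and its change of 0.22 ± 0.11 had an adjusted p of 0.50 and was 0.11 with wild-type replicate 2 left out.

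Ccl1, the ligand of Ccr8, lay at 54.9, 54.3 and 59.6 in wild-type and 66.5, 65.9 and 67.2 in transgenic prostates, with a change of 0.19 ± 0.072 and an adjusted p of 0.34. The genotypes did not overlap and the transgenic values were close together, but all 6 values lay below the background of their array. Ccl24, an eotaxin that attracts eosinophils through Ccr3, stood lower: 63.2, 50.6 and 54.2 in wild-type against 42.2, 50.3 and 43.7 in transgenic mice, a change of -0.23 ± 0.10 with an adjusted p of 0.39. It too was below background on every array. Ccl20, the ligand of Ccr6 on lymphocytes and dendritic cells, read 53.8, 39.1 and 52.2 in wild-type and 55.1, 61.5 and 54.0 in transgenic mice, again without overlap and again below background throughout (change 0.19 ± 0.11, adjusted p 0.55, or a change of 0.077 with wild-type replicate 2 left out).

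Ccl11, the eotaxin of fibroblasts and smooth muscle, had the largest change of the 51. It read 335, 185 and 195 in wild-type and 316, 249.8 and 321 in transgenic mice. Wild-type replicate 1 exceeded every transgenic mouse, while the other 2 wild-type mice lay below all 3. The change was 0.34 ± 0.21, with an interval of -0.16 to 0.83 and an adjusted p of 0.59. Leaving out wild-type replicate 1 gave 0.59 (adjusted p 0.076), leaving out wild-type replicate 2 gave 0.19 and leaving out wild-type replicate 3 gave 0.23. Among the wild-type mice replicate 1 was also the highest for fibroblast markers, and among the transgenic mice replicate 3 was the highest for both. The lowest mice differed: replicate 2 of each genotype for Ccl11, but wild-type replicate 3 and transgenic replicate 1 for the markers. The summed intensity of 8 such genes ran 5750, 4751, 4105 across wild-type and 5403, 5821, 7741 across transgenic mice. All 8 changes were positive, beside 53.9% of all genes, with a median of 0.50 beside 0.013. None of the 8 was called, beside 1.64% of all genes. An unadjusted p under 0.05 was reached by 4, all higher, beside 12.2% of all genes (6.91% higher). All 8 markers lay above background on at least 1 array. Their part in the Ccl11 values was not tested. In whole tissue, a change in the number of cells of a type and a change in RNA per cell cannot be told apart.

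The other CC ligands had adjusted p of 0.58 or more. Ccl5, made by T cells and by stimulated epithelium, read 109, 113 and 141 in wild-type and 141, 138 and 130.4 in transgenic mice (change 0.16 ± 0.10, adjusted p 0.58), with wild-type replicate 3 inside the transgenic range. Ccl2, the main monocyte attractant and ligand of Ccr2, read 85.1, 72.7 and 102 in wild-type and 74.6, 107 and 106 in transgenic mice, with overlapping genotypes and a change of 0.12 ± 0.15. Its relatives Ccl7, Ccl8 and Ccl12 had changes of 0.026, 0.0013 and 0.063, each from values below background on all arrays. Ccl3 and Ccl4, ligands shared by several inflammatory receptors, had changes of 0.24 and -0.035. The ligands of Ccr4, Ccl17 and Ccl22, stood at 0.043 and 0.013, and the mucosal chemokines Ccl25 and Ccl28 at -0.056 and -0.12. Ccl26, a further eotaxin, stood at -0.06. Of these, Ccl3, Ccl17, Ccl22, Ccl26 and Ccl28 also lay below background on every array. Ccl19, which guides cells to lymph nodes through Ccr7, had 5 probe sets, of which 2 carried identical values, and its brightest gave -0.085. A further 7 probe sets that list several gene symbols, a chemokine among them, were left out by the single-symbol rule.

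Among the 15 CXC, C and CX3C ligands, 12 changes were positive, beside 53.9% of all genes. An unadjusted p under 0.05 was found for 2 genes, both higher, beside 12.2% of all genes (6.91% higher). Cxcl16, a membrane-bound chemokine of macrophages, endothelium and epithelium and the ligand of Cxcr6, had the smallest p of the family. It gave 115, 136 and 120.4 in wild-type and 158, 148 and 171 in transgenic replicates, all above background. Every transgenic mouse exceeded every wild-type mouse, and the means were 124 ± 11.2 and 159 ± 11.2 (SD, n = 3 each). The log2 change of 0.33 ± 0.091 had a 95% interval of 0.11 to 0.54 and an adjusted p of 0.19, so the difference exceeded the spread between mice but not the threshold over all genes. Over the 15 other settings tried its change stayed between 0.25 and 0.39, with adjusted p between 0.12 and 0.57.

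Cxcl10, an interferon-induced ligand of Cxcr3, gave 51.4, 51.9 and 56.7 in wild-type and 58.2, 71.0 and 65.0 in transgenic mice. The genotypes did not overlap, yet all 6 values lay below background, and the change of 0.22 ± 0.086 had an adjusted p of 0.37. The other ligands of Cxcr3, Cxcl9 and Cxcl11, overlapped between genotypes, with changes of 0.12 ± 0.11 and 0.054 ± 0.13, also from below background.

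Cxcl1, Cxcl2 and Cxcl3, which attract neutrophils through Cxcr2, are encoded in 1 stretch of the genome. Cxcl1 read 209, 286 and 344 in wild-type and 330.4, 362 and 320.2 in transgenic prostates. The wild-type mice were spread more widely (279.6 ± 67.6, SD, n = 3) than the transgenic mice (337 ± 21.6), and wild-type replicate 3 lay inside the transgenic range. The change was 0.28 ± 0.16 (adjusted p 0.54), and it was 0.099 when wild-type replicate 1 was left out and 0.44 when wild-type replicate 3 was. Cxcl3 read 135, 141 and 165 in wild-type and 175, 163 and 178 in transgenic mice, with wild-type replicate 3 just above the lowest transgenic value, a change of 0.21 ± 0.092 and an adjusted p of 0.42. Cxcl2 stayed below background, at 34.4, 31.4 and 29.4 in wild-type and 25.5, 42.1 and 35.1 in transgenic mice, with a change of 0.062 ± 0.13. Cxcl5 and Cxcl15, further ligands of this kind, had changes of 0.16 and 0.11 from values below background.

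The promoters of these 3 neighbours and of Cxcl10 are shown because they carry the sites through which inflammation and interferon are known to act on chemokine genes. The sequences come from RefSeq on GRCm38.p6, are written 5′ to 3′ along the gene's strand and cover the 250 bases before the gene's start. Capitals mark matches, on either strand, to the NF-kB (kappa B) site and, in Cxcl10, also to the interferon-stimulated response element, GAAA repeated after 2 free bases, which is its first capital run. Cxcl1 lies at chr5:90890995-90891244 on the plus strand, Cxcl2 at chr5:90903649-90903898 on the plus strand, Cxcl3 at chr5:90785851-90786100 on the plus strand and Cxcl10 at chr5:92348890-92349139 on the minus strand.
Cxcl1: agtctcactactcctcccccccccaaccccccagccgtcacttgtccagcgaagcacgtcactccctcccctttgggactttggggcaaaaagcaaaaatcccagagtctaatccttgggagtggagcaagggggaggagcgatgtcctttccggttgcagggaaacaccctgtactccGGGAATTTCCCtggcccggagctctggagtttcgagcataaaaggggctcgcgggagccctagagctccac
Cxcl2: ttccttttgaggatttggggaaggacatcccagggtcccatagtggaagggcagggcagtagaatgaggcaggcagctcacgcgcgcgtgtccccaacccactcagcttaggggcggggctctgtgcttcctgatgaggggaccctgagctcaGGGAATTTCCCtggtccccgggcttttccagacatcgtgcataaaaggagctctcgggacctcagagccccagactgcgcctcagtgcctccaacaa
Cxcl3: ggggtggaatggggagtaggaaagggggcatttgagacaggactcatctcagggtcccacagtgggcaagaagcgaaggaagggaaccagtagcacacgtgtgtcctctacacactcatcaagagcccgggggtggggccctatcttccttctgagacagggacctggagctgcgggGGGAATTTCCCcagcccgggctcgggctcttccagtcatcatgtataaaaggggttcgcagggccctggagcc
Cxcl10: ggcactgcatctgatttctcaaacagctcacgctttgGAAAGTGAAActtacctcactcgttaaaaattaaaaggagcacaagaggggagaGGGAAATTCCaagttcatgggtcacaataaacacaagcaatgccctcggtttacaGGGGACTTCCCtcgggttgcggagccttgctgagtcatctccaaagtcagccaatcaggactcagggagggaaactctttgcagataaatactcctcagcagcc
All 3 neighbours hold the same run, in which 2 overlapping matches differ in position by 1 base. It begins 71 bases before the start of Cxcl1, 97 before that of Cxcl2 and 73 before that of Cxcl3. Of the 51 genes, 37 had a promoter of 300 bases in the table, 39 promoters in all. A kappa B match was present in 25.6% of the 39, beside 8.46% of 32851 promoters, and an interferon-stimulated element in 7.69% beside 3.44%. The gamma-activated site TTCNNNGAA stood in 7.69% beside 8.30%, and the androgen receptor half-site AGAACA in 20.5% beside 19.0%, all counted on both strands. The genes with a kappa B match were Ccl1, Ccl9, Ccl20, Ccr1, Ccr3, Ccr6, Cxcl1, Cxcl2, Cxcl3 and Cxcl10. None of the 51 genes was called, with a match or without. A match describes letters in this window and not a bound site.

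Ligands that tissues make without inflammation are Cxcl12, Cxcl14, Cxcl17 and Cx3cl1, and each overlapped between the genotypes. Cxcl12, the stromal ligand of Cxcr4, read 169, 151 and 117 in wild-type and 147, 168 and 226 in transgenic mice. Its lowest value was in wild-type replicate 3 and its highest in transgenic replicate 3, which were also the lowest and the highest arrays for the summed fibroblast markers given above, whose part was not tested. The change was 0.27 ± 0.17 (adjusted p 0.58), and it was 0.14 or 0.11 when wild-type or transgenic replicate 3 was left out. Cxcl14, a chemokine of epithelium, read 282, 267 and 205 in wild-type and 189, 301 and 267 in transgenic mice, a change of -0.0059 ± 0.18 whose sign turned in 3 of 15 other settings. Cxcl17, made by mucosal epithelium, read 121, 137 and 191 in wild-type and 115, 136 and 107 in transgenic mice, with overlap, a change of -0.28 ± 0.16 (adjusted p 0.54), or -0.11 when wild-type replicate 3 was left out.

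Cxcl13, the B cell attractant, was singled out after its values were seen for its spread. It read 137, 68.1 and 71.3 in wild-type and 152, 99.5 and 93.2 in transgenic replicates, so that replicate 1 of each genotype stood above the other mice, and its interval of -0.29 to 0.90 was the widest upwards of the 51. Its change was 0.30 ± 0.26 with an adjusted p of 0.69, and 0.11 to 0.58 over the other settings. Cx3cl1, the membrane-anchored fractalkine, read 184, 221 and 241 in wild-type and 235, 216 and 231 in transgenic mice, with overlap and a change of 0.08 ± 0.11 (adjusted p 0.82), which was -0.021 with wild-type replicate 1 left out and 0.16 with wild-type replicate 3 left out. Xcl1, the C chemokine of NK and CD8 T cells, had a change of -0.10 ± 0.08 and lay above background on 1 array.

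**Figure D3:**
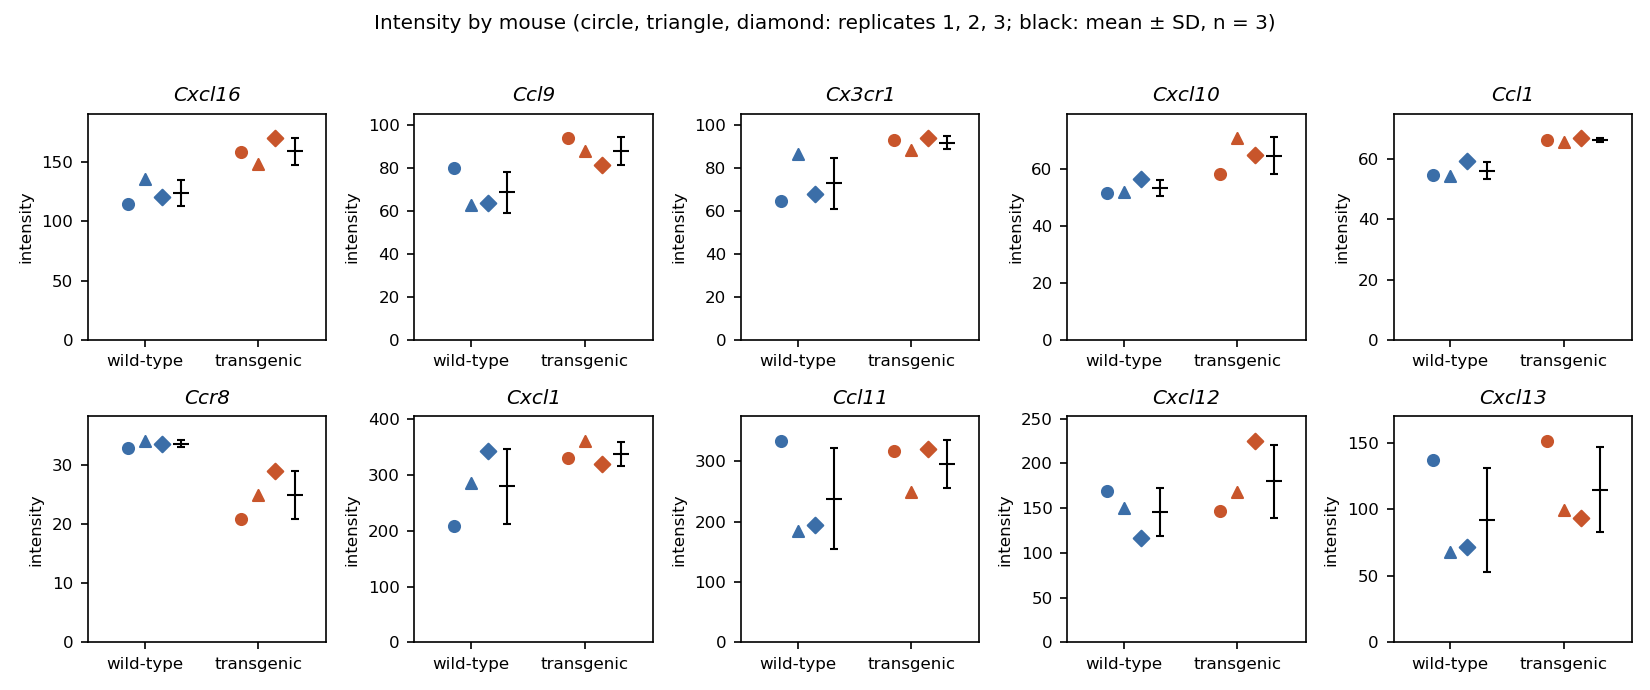
Intensity by mouse of 10 genes on a linear axis from 0, wild-type in blue and transgenic in orange, with the mean ± SD (n = 3) in black. In Cxcl16, Ccl9, Cx3cr1, Cxcl10 and Ccl1 the 3 transgenic mice lie above the 3 wild-type mice and in Ccr8 below them, while in Cxcl1, Ccl11, Cxcl12 and Cxcl13 the genotypes overlap.

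Among the 17 receptors, 1 gene was higher and 1 lower with an unadjusted p under 0.05, beside 6.91% and 5.27% of all genes. Cx3cr1, the fractalkine receptor of monocytes and tissue macrophages, read 64.3, 86.2 and 67.7 in wild-type and 92.8, 88.0 and 93.9 in transgenic mice. The genotypes did not overlap, wild-type replicate 2 came close to the transgenic range, and values of 4 arrays lay above background. The change of 0.29 ± 0.10 had an adjusted p of 0.33. Ccr8, carried by regulatory and other T cells, read 33.0, 34.2 and 33.6 in wild-type and 21.0, 25.0 and 29.0 in transgenic mice, a change of -0.28 ± 0.09 (adjusted p 0.27). Its wild-type values were close together and all transgenic values lay below them, but every value was under the background scale.

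Cxcr4, the receptor of Cxcl12, was the only receptor above background on all 6 arrays. It read 117, 124 and 155 in wild-type and 168, 143 and 133 in transgenic mice, with overlap, a change of 0.15 ± 0.12 and an adjusted p of 0.69. The change was 0.077 with wild-type replicate 1 left out, 0.26 with wild-type replicate 3 left out and 0.064 with transgenic replicate 1 left out. Cxcr3, the receptor of Cxcl10 on T and NK cells, read 55.9, 59.8 and 55.5 in wild-type and 67.8, 59.9 and 84.3 in transgenic mice. The genotypes did not overlap, though the highest wild-type and the lowest transgenic value were almost equal, and only 1 array, transgenic replicate 3, lay above background (change 0.24 ± 0.11, adjusted p 0.45, or a change of 0.13 with that array left out). Cxcr1, a neutrophil receptor, read 64.2, 74.4 and 93.2 in wild-type and 64.5, 76.0 and 57.1 in transgenic mice, with overlap (change -0.18 ± 0.14, adjusted p 0.65). Its change was -0.29, -0.062 or -0.10 with wild-type replicate 1, wild-type replicate 3 or transgenic replicate 3 left out.

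The other 12 receptors overlapped between genotypes and had adjusted p between 0.73 and 0.98. Ccr7 and Ccr10 lay above background on 1 array each, and the rest of the 12 lay below it on every array. The receptors of the brighter ligands, Cxcr2 (for Cxcl1 and Cxcl3), Cxcr6 (for Cxcl16) and Ccr3 (for Ccl11), had changes of -0.11, -0.036 and 0.056. Ccr1 and Ccr2, the receptors of inflammatory monocytes, stood at -0.073 and -0.027. Lymphocyte receptors gave 0.083 for Ccr4, -0.011 for Ccr6, 0.10 for Ccr7, 0.21 for Ccr9, -0.052 for Ccr10 and 0.084 for Cxcr5. Xcr1, the receptor of Xcl1 on cross-presenting dendritic cells, stood at -0.12.

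Relatives of the family, and genes that act on it, held 2 called genes among those the symbol rule leaves out. Of 14 such genes measured, 2 were higher and none lower at an adjusted p of 0.05, beside 1.18% and 0.456% of all genes, and 6 had an unadjusted p under 0.05, beside 12.2%. Dpp4, a cell-surface peptidase that trims chemokines among other peptides, rose from 1774 ± 196 to 2781 ± 139 (SD, n = 3 each), a change of 0.65 ± 0.10 with an adjusted p of 0.019. Cmtm3, of the chemokine-like factor family of membrane proteins, gave 225, 232 and 201 in wild-type and 341, 307 and 347 in transgenic mice, a change of 0.56 ± 0.088 with an adjusted p of 0.022. Neither was called when wild-type replicate 2 or 3 or a single transgenic mouse was left out (up to 0.12 for Dpp4 and 0.14 for Cmtm3), nor with a replicate block, a term for the mouse number.

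The founding gene of that family, Cklf, gave 74.6, 73.7 and 60.7 in wild-type and 135, 95.7 and 137 in transgenic mice, without overlap, a change of 0.68 ± 0.14 and an adjusted p of 0.074, and was called in 4 of 15 other settings (0.026 to 0.30). Cmtm6 and Cmtm7 of the same family, above background on all 6 arrays, had changes of -0.056 and -0.0011. Ccr1l1, below background on every array, had a change of 0.28 ± 0.071 (adjusted p 0.16). Ccrl2, a non-signalling receptor that presents chemerin, read 92.8, 112 and 87.5 in wild-type and 128, 125 and 133 in transgenic mice. Its genotypes did not overlap (change 0.35 ± 0.10, adjusted p 0.19). The scavenging receptor genes Ackr2, Ackr3 and Ackr4, whose products clear chemokines, had changes of 0.036 ± 0.11, 0.041 ± 0.13 and 0.0097 ± 0.08. Ackr1, which carries chemokines across venular endothelium, read 56.0, 76.7 and 59.5 in wild-type and 52.4, 52.3 and 45.1 in transgenic mice, below background on each array (change -0.27 ± 0.11, adjusted p 0.38). The platelet chemokines Pf4 and Ppbp, below background on every array, stood at 0.10 and 0.021, and Mif at -0.073.

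Downstream of the receptors, 1 of 29 signalling genes was called, beside 1.64% of all genes. Rgs2, which shortens G protein signals, rose from 1326 ± 189 to 2096 ± 57.0, a change of 0.66 ± 0.11 (adjusted p 0.035). Rgs2 was no longer called with an added constant of 1, with the replicate block, or when wild-type replicate 2 or a single transgenic mouse was left out (up to 0.17). The kinase gene Jak2 (0.39 ± 0.082, adjusted p 0.083) and the migration adaptor Elmo1 (0.25 ± 0.073, 0.21) were next. The median change over the 29 was 0.12, beside 0.013 over all genes, and 21 were positive, beside 53.9% of all genes.

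Upstream, the list of cytokines and regulators that induce chemokines held 27 measured genes, of which 2 were called higher and none lower, beside 1.18% and 0.456% of all genes. The called genes were Lcn2 and Irf7. Lcn2, an iron-binding secreted protein that NF-kB induces together with Cxcl1, and so a companion rather than an inducer, rose from 203, 201 and 122 to 3286, 3323 and 3301 (change 4.15 ± 0.17, adjusted p 1.7e-05). The Cxcl1 values given above overlapped between the same mice. Irf7, an interferon-induced transcription factor, had a change of 0.54 ± 0.10 and an adjusted p of 0.045, which was lost when any 1 array was left out (up to 0.23), after quantile normalization or median centring, with an added constant of 1 and with the replicate block. The cytokine genes Tnf and Il1b, which switch on chemokines, had changes of 0.064 ± 0.17 and 0.13 ± 0.10, and Il6 one of -0.29 ± 0.087, with Il1b and Il6 below background on every array. The alarmin Il33 gave 211, 213 and 154 in wild-type and 238, 284 and 318 in transgenic mice (change 0.51 ± 0.15, adjusted p 0.21), and the NF-kB inhibitor Nfkbia had a change of 0.21 ± 0.073 (adjusted p 0.30).

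Of 16 interferon-induced genes other than chemokines, 0 were called by limma and 4 had an unadjusted p under 0.05, all higher, beside 1.64% and 12.2% of all genes. They were Irgm1 (0.65 ± 0.14, adjusted p 0.084), Irf9 (0.31 ± 0.10, 0.25), Usp18 (0.24 ± 0.082, 0.29) and the proteasome gene Psmb9 (0.23 ± 0.10, 0.41). Psmb9 overlapped between the genotypes, and Usp18 lay above background on 2 arrays. Mx1 and Ifit2 stood lower, at -0.17 and -0.063. Of the 16 genes, 6 lay below background on every array. The median of the 16 was 0.15, beside 0.013 over all genes, and 14 were positive, beside 53.9% of all genes.

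Markers of the cells that make or answer chemokines were read on the same arrays. The summed intensity of 12 macrophage markers was 973 to 1114 in wild-type and 1209 to 1372 in transgenic prostates, without overlap. Of the 12 changes 11 were positive, beside 53.9% of all genes. No macrophage marker was called, beside 1.64% of all genes. An unadjusted p under 0.05 was reached by 3, all higher (C1qb, C1qa and Csf1r), beside 12.2% of all genes (6.91% higher). The defining markers Adgre1, Cd14, Cd163, Aif1 and Fcgr1 lay below background on all arrays. The sum over 10 dendritic cell markers was 1166 to 1307 against 1437 to 1889. The 3 with an unadjusted p under 0.05, beside 12.2% of all genes, were the class II genes H2-Aa, H2-Ab1 and Cd74, all higher. H2-Aa read 187, 144 and 148 in wild-type and 254, 383 and 469 in transgenic mice (change 1.10 ± 0.21, adjusted p 0.057). Itgax, Flt3, Clec9a and Cd209a were below background throughout. H2-Aa was called in 6 of 15 other settings, where its adjusted p ran from 0.010 to 0.23. Without the 3 class II genes, a choice made after the values were seen, the dendritic sum overlapped between genotypes, at 794, 846 and 979.9 in wild-type and 876, 944 and 873 in transgenic mice. The dendritic markers Zbtb46, Irf8 and Batf3, above background on all arrays, had changes of 0.10, 0.057 and -0.017, and the macrophage markers C1qc and Mrc1 had 0.057 and 0.10. The macrophage sum was higher on the same arrays as Cxcl16, Ccl9 and Cx3cr1, and its part in those values was not tested.

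Neutrophil markers lay at or near background. Of 9 neutrophil markers, 6 lay below background on every array, S100a8 and S100a9 among them, and the sum was 386 to 479 in wild-type and 416 to 439 in transgenic mice. T cell markers summed to 691 to 909 and 749 to 794, with none of 10 at an unadjusted p under 0.05, beside 12.2% of all genes. The sums over NK, B, mast cell and eosinophil markers overlapped between genotypes as well, and none of their genes was called, beside 1.64% of all genes.

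Endothelium showed 1 call among 8 blood vessel markers, beside 1.64% of all genes. Cdh5, the cadherin of endothelial junctions, rose from 107, 86.3 and 75.5 to 168, 199 and 187 (change 0.93 ± 0.12, adjusted p 0.010). Its value in wild-type replicate 3 lay below that array's background of 91.9. The call was lost with the replicate block and when wild-type replicate 2 or transgenic replicate 2 or 3 was left out (up to 0.065). The sum over 6 lymphatic markers was 559 to 638 in wild-type and 689 to 760 in transgenic mice, with no gene called. Epithelial markers of the prostate were bright in all mice, Pbsn between 7927 and 9758, and the sum over 7 luminal markers was 27028 to 27360 in wild-type and 26172 to 26794 in transgenic prostates. Seminal vesicle genes, a sign of adjoining tissue, ran from a sum of 213 in wild-type replicate 2 to 4460 in wild-type replicate 1, and from 1401 to 8798 in transgenic mice, and their part in the chemokine values was not tested.

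**Figure D4:**
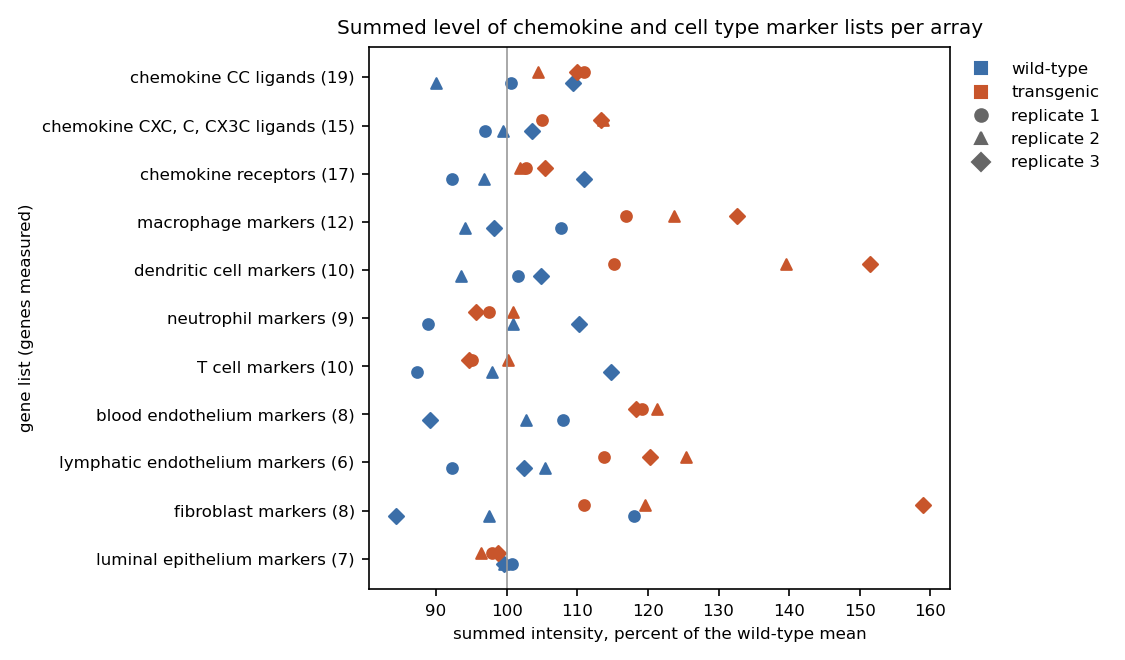
Summed intensity of chemokine roles and cell type marker lists on each array, as a percent of the wild-type mean of that list, with the number of genes in brackets. Wild-type is blue and transgenic orange, and shapes give the replicate. Macrophage, dendritic cell, blood and lymphatic endothelial, luminal and CXC, C and CX3C ligand sums do not overlap between genotypes, whereas fibroblast, neutrophil, T cell, CC ligand and receptor sums do. Bright genes weigh most in a sum. The CXC, C and CX3C ligand sums come close, at 1801 in wild-type replicate 3 and 1826 in transgenic replicate 1. The dendritic sum overlaps without its 3 class II genes.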

How the data were processed

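RNA of 6 prostates was measured on Affymetrix whole-transcript arrays after DNase treatment and biotin labelling, per the labels' protocols. The deposited intensity values, 1 per probe set and array on a linear scale, were taken as already normalized between arrays; the sources used here do not state how the authors summarised, background-corrected or normalized them. Of 35512 probe sets, 6568 with control identifiers were left out, from knowledge of the platform, leaving 28944. Symbols came from the platform annotation: 21789 probe sets had 1 symbol, 1621 several and 5534 none here.

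log2(intensity + 16) was fitted over all 28944 probe sets with limma 3.58.1 in R 4.3.3, transgenic minus wild-type, with no covariate, two-sided, and Benjamini-Hochberg adjustment over all of them at 0.05. All adjusted p-values come from limma. Intervals are 95% intervals of its moderated test, not adjusted. The fit was tested on simulated data. With 3 arrays per genotype, their number limits the precision. The sources used here name no batch. Alternatives tried were median centring or quantile normalization, added constants of 1 and 64, a filter on the dimmest 40%, array weights, robust variances with an intensity trend, a block for the mouse number, single arrays left out, and averaging a gene's probe sets.

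The members and lists were chosen with earlier results of these data known. Named genes were all called members, the 5 smallest p per role, the 6 brightest, up to 5 changes each way without overlap, and, of other lists, called genes or the smallest p. Others are named as values only.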

Additional observations from a re-analysis of the deposited data

How the results depend on the processing

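In all 15 alternatives limma called 0 of the members at an adjusted p of 0.05. The smallest adjusted p in any of them was 0.052, for Ccl9 with array weights, followed by 0.076 for Ccl11 without wild-type replicate 1. Members with an unadjusted p under 0.05 numbered 13 with array weights and 2 to 11 when single arrays were left out, against 7. The share of all genes under 0.05 was not counted in those settings, where the calls over all probe sets, given below, moved as well. The median change of the members was 0.21 without the dimmest 40% of probe sets, a setting that keeps 17 of the 51 genes, against 0.063. It ran from 0.041 to 0.14 when single arrays were left out and was 0.025 after median centring. Of the 51 genes 30 kept the sign of their change in every setting, among them all 7 with an unadjusted p under 0.05. Those 7 were picked by their p on these same arrays, so their kept sign is no separate support. The share of all genes that kept their sign was not counted. Mice of the same number did not deviate together (correlations of -0.044, 0.046 and -0.16), so the numbers were not taken to pair them. With a replicate block for the mouse number the call count was 0, the median change 0.063 and the count of calls over all probe sets 250 against 425. Over all probe sets the calls numbered 1202 with array weights, 678 with an intensity trend and 254, 248 and 234 without wild-type replicate 2 and transgenic replicates 2 and 3. Median centring gave 314 higher and 264 lower against 305 and 120. The causes of these differences were not tested. No depth exists for arrays: the 28 genes below background on every array could have changed by amounts that these intensities would not show.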
